A study of Mus musculus with 12 samples.

Results

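Mammary tumours from mice given curcumin and made to swim were compared with tumours from tumour-bearing mice given the vehicle alone, as 3 combination libraries against 3 control libraries, 6 of the 12 RNA sequencing libraries in the series. The members are all genes of the count table: 21899 were listed, 13638 had enough reads to be tested, and 663 of those were called different. All 12 libraries come from the mouse breast cancer line 4T1-LUC, injected as 0.2 mL of cell suspension under the skin of the chest and abdominal wall of BALB/c mice. At the start the animals were between 4 and 6 weeks old, with body weights between 18 and 20 g. Control mice received 200 µL of vehicle, corn oil by their label, by gavage each afternoon. Combination mice received curcumin at 100 mg/kg in 200 µL of corn oil, and 30 min after gavage they swam for 30 min. The other two groups, used here only for reference, received curcumin without swimming or the vehicle with swimming, with 3 libraries each. Swimming is given by the sample titles and the protocol, and the treatment labels of the swimming and combination libraries name only the gavage. Every group therefore had the same cell line, host strain and gavage volume. Combination and control differ by curcumin and swimming together, which this comparison alone cannot tell apart. The protocol gives 5 mice per group, more than the 3 libraries, and the labels do not say whether each library is a separate animal or tumour, so each p-value reflects no more than the scatter among these libraries, part or all of which may be technical.

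Library totals ran from 15868595 to 17278826 counts in the 6 libraries. The tumour epithelial markers Epcam, Krt8 and Krt18 were abundant in all of them, with Epcam at 332, 368 and 316 CPM (counts scaled to the library total) in control and 330.1, 332 and 333 in combination. The labels call the cells breast cancer cells, and markers of stroma, vessels and white blood cells were detected beside them. The groups were unequal in spread: the biological coefficient of variation, the between-library spread beyond counting noise, was 26.7% in control and 6.46% in combination. Between control libraries 50.6% to 66.4% of genes differed beyond counting noise, and between combination libraries 26.1% to 33.2%. Control 2 stood apart from controls 1 and 3 on several gene lists, and some list results are given with and without it. Single genes are given with the p-value from all libraries only. Of the 108 called genes named, 54 kept their call without control 2.

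Curcumin is a polyphenol of turmeric root, and swimming is a common form of aerobic exercise in mice. The 4T1 line is a model of aggressive, metastasising mammary carcinoma, whose tumours contain cancer cells together with fibroblasts, vessels and many infiltrating myeloid cells. Cancer-associated fibroblasts and tumour cells lay down collagens, laminins and matricellular proteins, TGF-beta signalling raises many of those genes, and type I interferon induces antiviral genes through sites in their promoters called ISREs.

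Of the 13638 genes tested, 332 were called higher and 331 lower in combination (edgeR quasi-likelihood test, Benjamini-Hochberg adjusted p of 0.05 or below), which is 4.86% of genes, 2.43% in each direction. Most of these changes were small. Among the genes called higher 140 changed by less than 1.5-fold, 99 by 1.5 to 2-fold, 79 by 2 to 4-fold and 14 by more, with a median log2 fold change of 0.67. Genes called lower numbered 176, 103, 38 and 14 in the same size classes, with a median of -0.57. The 3 combination libraries lay wholly above or below the 3 control libraries for 32.1% of all tested genes, 16.3% above and 15.8% below. In the plot of level against difference, called genes lie along both edges of the cloud over most of the range of levels.

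**Figure D1:**
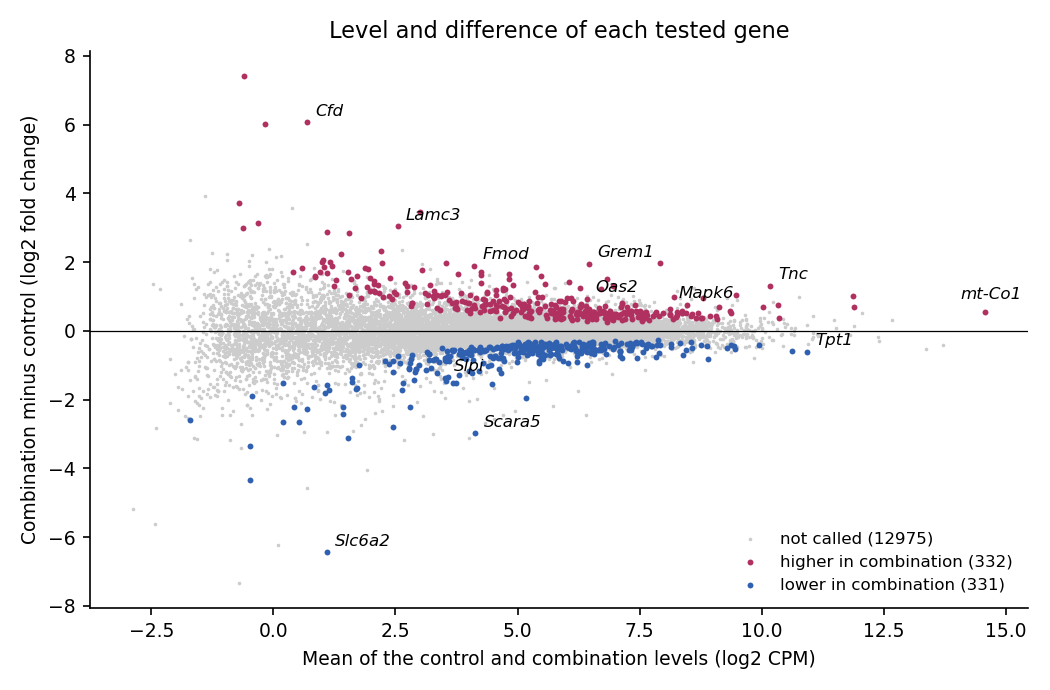
Each point is 1 of the 13638 tested genes; the horizontal axis is the log2 of its mean CPM over the control and combination group means and the vertical axis its log2 fold change, combination minus control. Red points are the 332 genes called higher and blue points the 331 called lower, and grey points were not called.

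The number of calls depended on which libraries were in the fit. Leaving out combination 1, combination 2 or combination 3 left 20, 10 and 4 calls. Without control 1 the fit called 2182 genes, without control 2 it called 316 and without control 3 it called 324. The curcumin and swimming libraries enter through the shared spread estimate: 392, 533 and 179 genes were called without curcumin 1, 2 and 3, and 273, 764 and 804 without swimming 1, 2 and 3. All 663 genes kept their direction in each of these 12 fits, which says little about how firm the calls are. In at least 651 of them all combination libraries lay on one side of all controls, so leaving out a library could hardly reverse the direction. Only Lamc3, Fmod, Mapk6 and Slc6a2 were called in all 12, and another 6 genes in 11 of 12.

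**Figure D2:**
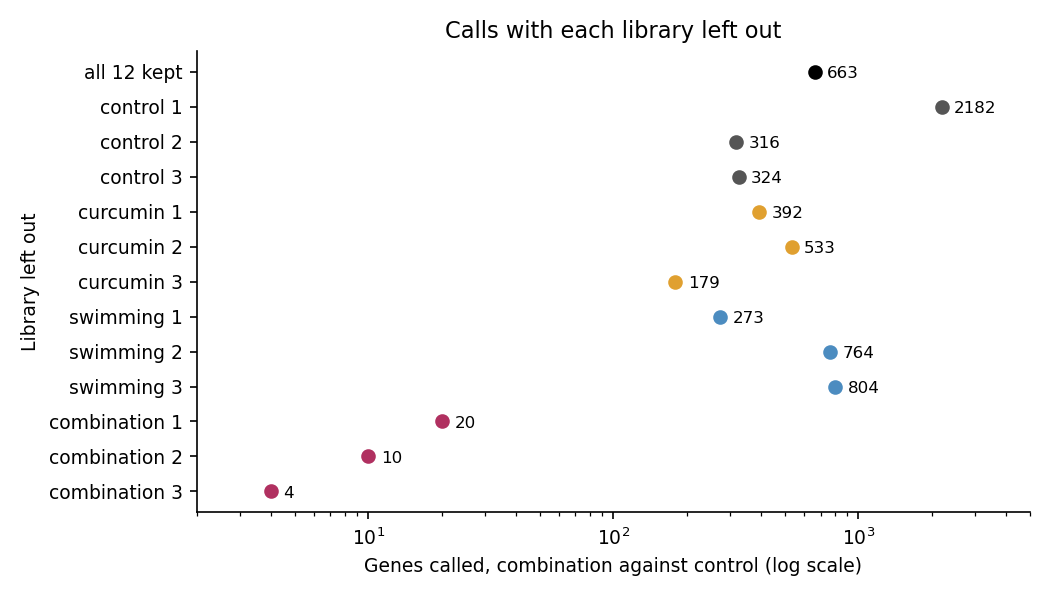
Number of genes called between combination and control (horizontal axis, log scale) with all 12 libraries and with each library left out in turn (vertical axis), coloured by the group of the missing library. The count is 663 with all libraries, falls to 4 without combination 3 and rises to 2182 without control 1.

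The 3 genes with the smallest p-values were Mapk6, Slc6a2 and Fmod. Mapk6 (ENSMUSG00000042688, chromosome 9, 75276344 to 75317287), an atypical MAP kinase also known as ERK3, stood at 223, 218 and 214 CPM in controls 1, 2 and 3 and at 332, 348 and 344 in combinations 1, 2 and 3. All 3 combination libraries lay above all 3 controls, with group means of 218 ± 4.55 and 341 ± 8.63 CPM (here and below ± is the SD of n = 3 libraries for CPM) and a log2 fold change of 0.64 ± 0.07 (± standard error, adjusted p = 0.0029). It also exceeded curcumin alone (219.8 ± 6.75 CPM, difference 0.64 ± 0.07, adjusted p = 0.003) and swimming alone (269 ± 9.43 CPM, 0.34 ± 0.07, 0.017). Fmod (ENSMUSG00000041559, chromosome 1, 133964992 to 133976015) encodes fibromodulin, a proteoglycan that binds collagen fibrils. It rose from 7.15, 5.86 and 8.87 CPM in the controls to 29.0, 27.9 and 24.4 in combination, a log2 fold change of 1.89 ± 0.22 (adjusted p = 0.0052), and also exceeded both single treatments (0.003 against curcumin, 0.0018 against swimming). Aspa, the enzyme that breaks down N-acetylaspartate, followed that pattern at lower levels, 2.30, 1.24 and 2.10 CPM in control and 7.51, 6.90 and 7.97 in combination (1.98 ± 0.29, adjusted p = 0.0095). Its difference from curcumin was 2.04 ± 0.29 (adjusted p = 0.013) and from swimming 2.98 ± 0.31 (0.00098).

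For a second set of leading genes, combination and curcumin alone were not separated by the test. Lamc3 (ENSMUSG00000026840, chromosome 2, 31777303 to 31836551), the laminin gamma-3 chain, rose from 1.88, 0.651 and 1.23 to 11.9, 10.9 and 8.41 CPM (3.05 ± 0.40, adjusted p = 0.0058), while curcumin alone stood at 9.55 ± 0.709 CPM (difference 0.12 ± 0.34, adjusted p = 0.89). Grem1 (ENSMUSG00000074934, chromosome 2, 113576509 to 113588991), a secreted BMP antagonist, rose from 35.3, 43.3 and 29.7 to 139, 139.7 and 141 CPM (1.95 ± 0.24, 0.0058). Curcumin alone gave 107 ± 14.9 CPM for Grem1, from which the combination differed by 0.38 ± 0.23 (0.4), and swimming alone gave 21.6 ± 8.76 CPM (difference 2.70 ± 0.25, 0.00098). Slc15a3, a lysosomal peptide and histidine transporter, reached 125 ± 3.44 CPM from 79.2 ± 11.2 in control (adjusted p = 0.0095), beside 125 ± 4.18 in curcumin. A difference that misses the threshold does not show that combination and curcumin act alike, and the standard errors for Lamc3 and Grem1 leave room for changes of more than 1.5-fold. Adam12, a membrane metalloprotease of activated stroma, rose from 59.2 ± 10.7 to 168 ± 6.29 CPM (1.51 ± 0.19, 0.0058), with 99.3 ± 12.4 in curcumin and 82.2 ± 22.7 in swimming. Relative to the control mean, its log2 levels were 1.51, 1.58 and 1.47 in combination and 0.89, 0.54 and 0.82 in curcumin. For this gene the combination libraries thus lay wholly above those of curcumin. Avpr1a, the vasopressin V1a receptor, rose from 0.606, 0.474 and 1.05 to 4.24, 5.81 and 5.44 CPM (2.85 ± 0.40, 0.0095), with 3.28 ± 0.479 CPM in curcumin alone.

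Among genes lower in combination, Slc6a2 (ENSMUSG00000055368, chromosome 8, 93686707 to 93728295), the noradrenaline transporter of sympathetic nerve endings, was nearly absent. It had 75, 82 and 57 counts in controls 1 to 3 and 2, 0 and 0 in combinations 1 to 3. The control sum of 214 against 2 gives a ratio of 105, with an exact 95% interval for counting error alone of 28.7 to 873 (edgeR adjusted p = 0.0029). Both single treatments were also below control, with 1.03 ± 0.289 CPM in curcumin (combination against it, adjusted p = 0.025) and 0.324 ± 0.167 in swimming (0.071). Slpi (ENSMUSG00000017002, chromosome 2, 164195990 to 164231015), a secreted inhibitor of neutrophil elastase, fell from 12.7, 17.5 and 19.5 to 6.96, 6.24 and 6.07 CPM (-1.36 ± 0.17, adjusted p = 0.0058). It was lower than in both single treatments (-1.29 ± 0.17, 0.011 against curcumin; -1.70 ± 0.17, 0.00098 against swimming). Prom2, a cholesterol-binding protein of membrane protrusions, fell from 58.3 ± 3.10 to 33.1 ± 1.81 CPM (-0.82 ± 0.11, 0.0058), and Psd, an exchange factor for the small GTPase ARF6, from 41.6 ± 3.03 to 22.2 ± 3.50 (-0.91 ± 0.12, 0.0058). Tep1, a component of telomerase and vault particles, fell by 0.61 (0.0095), Acaa1a, a peroxisomal thiolase of fatty acid breakdown, by 0.67 (0.0095), and Mgp, a secreted inhibitor of mineralisation, by 1.23 (0.011) on the log2 scale. The plot of 24 genes by library shows these levels together with those of the single treatments.

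**Figure D3:**
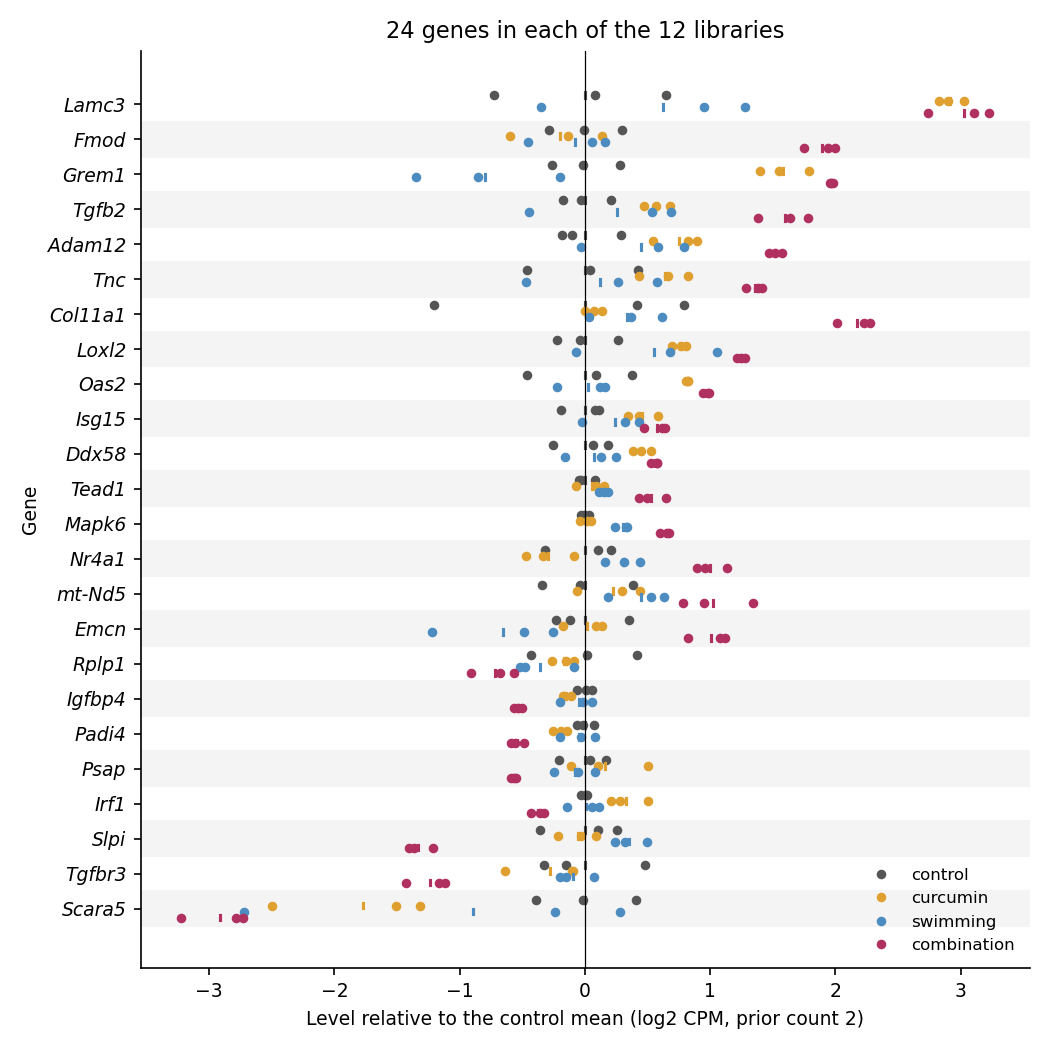
Levels of 24 called genes in each of the 12 libraries, as log2 CPM (prior count 2) relative to the control mean of each gene (horizontal axis); points are libraries coloured by group and short vertical bars are group means. The 3 combination libraries lie outside the 3 control libraries for every gene shown, and for Lamc3, Grem1 and Oas2 the curcumin libraries lie close to the combination.

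Matrix genes were called in both directions. Of 36 collagen chains tested, 4 were higher and 2 lower, 16.7% against 4.86% of all genes. Of the 36, 14 lay wholly above the controls (16.3% of all genes did) and 2 wholly below (15.8% of all genes). The list median was 0.36, beside -0.02 for all tested genes. Col11a1, a fibril-forming chain prominent in cancer-associated fibroblasts, rose from 5.33, 1.66 and 6.94 CPM in control to 19.1, 16.4 and 19.7 in combination (1.98 ± 0.36, adjusted p = 0.019). It also exceeded curcumin (4.18 ± 0.200 CPM, adjusted p = 0.026) and swimming (5.13 ± 1.04 CPM, 0.017). Col27a1, a cartilage-type fibrillar chain, rose from 14.6 ± 3.99 to 42.0 ± 3.24 CPM (1.52 ± 0.30, 0.025), and Col28a1 and Col5a3 by 2.07 (0.032) and 1.20 (0.04). Col11a2 and Col20a1 went the other way, by -1.23 (0.04) and -1.35 (0.042), and for Col11a2 control 1 was close to the combination libraries, at 11.9, 35.7 and 22.5 CPM in controls 1, 2 and 3 against 11, 8.78 and 10.1. The abundant fibrillar collagen Col1a1 was not called: it read 1416, 435 and 1690.3 CPM in the controls and 2378, 2336 and 2225 in combination (adjusted p = 0.15). For Col3a1 the groups overlapped, with 1131, 261 and 1394 in control and 1451, 1249.8 and 1358 in combination (0.45). Control 2 is the low library in both, and fibroblast markers moved with it: their summed level was 1026 to 3590 CPM over the controls and 4172 to 4420 over the combination libraries, and the median of that list was 0.36 with control 2 and -0.04 without it. The part of fibroblast content in the collagen values was not tested. Without control 2 the collagen median was 0.27 and 1 of 36 chains was called, and without combination 1, 2 or 3 the list had 0 calls.

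Basement membrane and matricellular genes were also called in both directions. Laminin chains, the cross-shaped trimers of basement membranes, were called higher for 2 and lower for 1 of 11 tested, Lamc3 and Lama5 among them (median 0.65, and 0.49 without control 2). That is 27.3% called, against 4.86% of all genes. Lama5, the alpha chain of many mature basement membranes, fell from 1128 ± 166 to 848 ± 30.6 (-0.41 ± 0.11, 0.048). Nid1, nidogen, which links laminin to collagen IV, rose by 0.78 ± 0.19 (0.045), and Loxl2, a collagen-crosslinking oxidase, from 55.2, 39.3 and 44.9 to 109, 112 and 107 CPM (0.019). Among 21 matricellular proteins, secreted modulators of cell adhesion, Ccn4, Tnc and Sparc were higher and Ccn5 and Smoc1 lower, 23.8% of the list (median 0.31, 0.16 without control 2). Without combination 1, 2 or 3, 0 of the 21 were called. Tnc, tenascin-C, rose from 859, 465 and 659 CPM in control to 1672, 1704 and 1559 in combination (1.32 ± 0.26, 0.026). Ccn4, a Wnt-induced member of the CCN family, rose from 43.3, 43.6 and 38.8 to 73.6, 79.8 and 74.6 CPM (0.86 ± 0.14, 0.013), whereas its relative Ccn5 fell from 23.6, 17.9 and 15.8 to 6.90, 6.00 and 6.89 (-1.53 ± 0.31, 0.027). Fmod and the biglycan gene Bgn were the called members of 9 small leucine-rich proteoglycans, and Adam12 and Adam19 those of 34 ADAM and ADAMTS proteases. Of 26 integrin chains, which anchor cells to this matrix, Itga5 of the fibronectin receptor rose (0.75 ± 0.19, 0.047) and Itgb4 of a laminin receptor fell from 869.6, 726 and 675 to 590.2, 566 and 559 CPM (-0.40 ± 0.10, 0.045). The share called was 7.69% for integrins (median -0.05) and 5.88% for ADAM and ADAMTS proteases (median 0.27), both near the 4.86% of all genes. For the small leucine-rich proteoglycans the share was 22.2%.

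Among signalling genes that act on matrix and mesenchymal cells, ligands, receptors and antagonists were called. In the TGF-beta and activin list of 24 genes, the ligand genes Tgfb2 and Inhba were higher and the co-receptor Tgfbr3 lower, with a list median of -0.03. The share called was 12.5% there and in the BMP list below, against 4.86% of all genes. Tgfb2 rose from 9.15, 10.8 and 8.29 to 24.6, 32.4 and 29.5 CPM, and its excess over swimming alone passed the test (adjusted p = 0.014) while that over curcumin alone did not (0.057). Inhba, the activin A subunit, rose from 264, 131 and 197 to 338, 403 and 430.3 CPM (0.98 ± 0.21, 0.031). Tgfbr3, betaglycan, fell from 17.1, 26.6 and 15.2 to 8.42, 7.03 and 8.72 CPM (-1.29 ± 0.22, 0.015). Of 24 BMP pathway genes, the antagonist Grem1 was higher and the BMP target genes Id1 and Id3, inhibitors of differentiation, were lower: Id1 went from 26.2, 36.7 and 23 to 17.5, 13.2 and 19.0 CPM (-0.79 ± 0.17, 0.03) and Id3 by -0.56 ± 0.14 (0.039). Prrx1, a mesenchymal transcription factor, rose from 52.1, 16.4 and 40.8 to 93.7, 99.1 and 98.4 CPM (1.41 ± 0.32, 0.039), with control 2 again lowest.

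The Hippo pathway restrains YAP, a coactivator that works through TEAD proteins. Of its 21 listed genes 4 were called, all higher, 19.0% against 4.86% of all genes, with a list median of 0.02. Tead1 rose from 198, 217 and 201 to 277, 321 and 289 CPM (0.53 ± 0.08, 0.012), and it exceeded curcumin alone (adjusted p = 0.027) and swimming alone (0.025). The YAP target Ankrd1 rose from 145 ± 12.2 to 216 ± 6.14 CPM (0.025), the kinase gene Lats1 from 159 ± 15 to 209.6 ± 8.08 (0.028) and Dlc1, a RhoGAP, from 15.8 ± 0.237 to 27.2 ± 3.13 (0.048). Other YAP targets were not called: Ccn1 read 123.2, 323 and 120.1 and Ccn2 128, 310.1 and 109 CPM in the controls, with control 2 above every combination library (265, 275 and 236 and 229, 239 and 212). Wnt genes were split, with Fzd6 (0.33, 0.035) and Wnt7a (0.74, 0.035) higher and Fzd5 (-0.61, 0.038) and Wnt7b (-0.43, 0.041) lower among 41 tested. That is 9.76% of the list, against 4.86% of all genes. Of 13 genes of the insulin-like growth factor axis, the binding protein genes Igfbp4 and Igfbp2 were called lower and 0 higher, 15.4% called against 4.86% of all genes. Igfbp4 fell from 834, 865 and 796 to 586, 561 and 575 CPM (-0.54 ± 0.08, 0.011), and Igfbp2 was lower at far fewer counts, 15, 48 and 37 in control and 0, 9 and 6 in combination. Of 17 immediate early genes, which respond within minutes to growth signals and stress, Nr4a1 and Fosb were higher than control. That is 11.8% of the list, against 4.86% of all genes. Nr4a1 went from 22.8, 32.8 and 30.6 to 55.4, 62.4 and 53 CPM (0.0095), and Fosb from 14.4, 16 and 24.2 to 65.7, 70.7 and 59.8 (0.019).

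Interferon-induced antiviral effectors were called higher for 12 of 33 tested and lower for 0, against 2.43% called higher among all genes, and 19 of the 33 lay wholly above the controls (16.3% of all genes did). The list median was 0.28, and 0.27 without control 2, where 7 of the 33 were called. Without combination 1, 2 or 3, 0 of the 33 were called, and the fit of the 6 libraries alone called 5. Against the same controls the median of this list was 0.39 for curcumin alone and -0.01 for swimming alone. Oas3 and Oas2 make 2-5A, the messenger that activates RNase L. Oas3 rose from 53, 53.3 and 68.6 to 96.8, 98.2 and 104 CPM (0.78 ± 0.13, 0.015) and Oas2 from 41.3, 60.6 and 73.9 to 113, 109.8 and 113 (0.93 ± 0.17, 0.019). Xaf1, a pro-apoptotic interferon target, rose by 0.52 ± 0.10 (0.019). The ubiquitin-like modifier Isg15 went from 27.3, 32.9 and 33.7 to 48.7, 43.2 and 47.9 CPM (0.57 ± 0.13, 0.033) and viperin, Rsad2, from 15.7, 20.1 and 21.8 to 33.2, 34.2 and 36.9 (0.86 ± 0.21, 0.04). The other called members were Ifi44, Trim30a, Cmpk2, Isg20, Oasl2, Ifit3 and Ifit2, with log2 fold changes from 0.41 for Isg20 to 0.82 for Ifi44. Ifit3 and Trim30a have near-identical copies, so their reads may be divided with a neighbour. Of 17 sensors of viral nucleic acid, 3 were called higher: Ddx58 (RIG-I), from 63.4, 79.1 and 85.9 to 113, 109 and 112 CPM, the double-stranded RNA kinase Eif2ak2 (0.55 ± 0.13, 0.036) and the Z-RNA sensor Zbp1 (0.42 ± 0.10, 0.04). That is 17.6% called, against 4.86% of all genes, and 0 of the 17 were called without combination 1, 2 or 3.

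Genes upstream in that pathway were called in both directions. Irf7, the factor that amplifies type I interferon, rose from 67.5, 93.3 and 97.2 to 124, 133 and 126 CPM (0.57 ± 0.14, 0.045). Ifnar2, a chain of the type I receptor, fell from 30.8, 35.4 and 31.7 to 23.5, 23.8 and 24.5 CPM (-0.45 ± 0.11, 0.038), and Irf1 was called lower as well, at 171, 172 and 166 against 132, 135 and 126 CPM (0.041). The 17 GTPases induced mainly by interferon-gamma had 0 calls in edgeR (3 at an unadjusted p under 0.05), 1 in DESeq2 and 0 in voom. Their median was 0.32 (0.19 without control 2), and 8 lay wholly above the controls (16.3% of all genes did). Compared with the single treatments, Oas2 stood at 100.4 ± 0.725 CPM under curcumin and 58.2 ± 8.21 under swimming. The combination differed from swimming (adjusted p = 0.012) and the test did not separate it from curcumin (0.16 ± 0.16, 0.65).

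Promoter sequences of RefSeq (build GRCm38.p6) were searched for the core of the ISRE (GAAA, any 2 bases, GAAA, on either strand, overlaps allowed) in the 250 bases before each gene's start. It was present in 3.35% of the 10796 tested genes with a promoter in that table, in 4.71% of genes called higher and in 5.09% of genes called lower. Of 26 antiviral effectors with a promoter, 10 held it: 5 of the 11 called higher (45.5%) and 5 of the 15 not called (33.3%). Members of the list that were not called held the motif too. The upstream sequences of 3 called genes and of Ifit1, which holds the motif but was not called, are shown so that the sites can be compared; capitals mark matches to the core, all printed 5′ to 3′ on the gene's strand, ending at the base before the start.
Isg15 (chr4:156200819-156201068, minus strand): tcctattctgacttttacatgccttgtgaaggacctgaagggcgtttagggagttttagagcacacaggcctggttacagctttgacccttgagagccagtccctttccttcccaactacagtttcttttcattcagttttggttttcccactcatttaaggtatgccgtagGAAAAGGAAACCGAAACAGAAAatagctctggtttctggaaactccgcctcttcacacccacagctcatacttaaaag
Oas3 (chr5:120777660-120777909, minus strand): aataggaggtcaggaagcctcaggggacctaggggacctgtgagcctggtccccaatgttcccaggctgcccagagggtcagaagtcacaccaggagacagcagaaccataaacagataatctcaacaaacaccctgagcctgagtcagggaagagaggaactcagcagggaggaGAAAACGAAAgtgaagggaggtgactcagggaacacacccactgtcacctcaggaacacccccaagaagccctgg
Ifit3 (chr19:34583279-34583528, plus strand): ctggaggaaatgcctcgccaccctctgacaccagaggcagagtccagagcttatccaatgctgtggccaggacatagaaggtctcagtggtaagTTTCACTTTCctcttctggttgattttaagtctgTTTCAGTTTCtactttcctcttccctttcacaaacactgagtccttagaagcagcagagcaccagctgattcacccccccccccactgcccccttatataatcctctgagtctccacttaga
Ifit1 (chr19:34640639-34640888, plus strand): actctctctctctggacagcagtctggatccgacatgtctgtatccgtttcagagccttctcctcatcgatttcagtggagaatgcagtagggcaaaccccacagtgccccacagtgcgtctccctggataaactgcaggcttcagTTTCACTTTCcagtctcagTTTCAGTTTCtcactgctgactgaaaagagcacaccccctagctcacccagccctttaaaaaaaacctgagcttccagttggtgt
Isg15 holds 3 overlapping matches, the first starting 78 bases before the gene's start, and Oas3 holds 1, at 75 bases. Ifit3 has its matches at 156 and 122 bases and Ifit1 at 104 and 85, in both cases on the opposite strand. Ifit1 read 22.8, 34.7 and 32.1 CPM in control and 46.4, 42.2 and 45.9 in combination, a difference of 0.58 ± 0.23 (adjusted p = 0.13), so the combination libraries were higher there too, without passing the test. A match describes these letters only, and no binding was measured.

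Cytosolic ribosomal protein genes leaned downwards. Among 79 cytosolic ribosomal protein genes 8 were called lower and 0 higher, 10.1% called against 4.86% of all genes. Of the 79, 36 lay wholly below the controls (15.8% of all genes did), and the median was -0.37. Rplp1, an acidic stalk protein, fell from 205, 369 and 281 to 187, 148 and 174 CPM (-0.75 ± 0.19, 0.045) and Rpl37a from 71.7, 105 and 98.4 to 65.7, 57.1 and 54.2 (-0.64 ± 0.15, 0.039). In both, control 1 lay next to the combination libraries and control 2 was highest. Without control 2 the median was -0.22 and 0 of the 79 were called by edgeR (31 at an unadjusted p under 0.05), whereas DESeq2 with all libraries called 31 and voom 5. Ribosomal protein genes have many processed copies in the genome, so their counts are uncertain. Tpt1, a growth-associated protein whose mRNA is regulated together with ribosomal proteins, fell from 1911, 2898 and 2196 to 1583, 1469 and 1547 CPM (-0.61 ± 0.13, 0.027). The nucleolin gene Ncl rose by 0.38 ± 0.09 (0.037). Of 65 translation factors 3 were called higher and 1 lower, 6.15% against 4.86% of all genes, with a median of -0.01. Eif5b, which joins the ribosomal subunits, rose from 253, 202 and 234 to 302, 359 and 313 CPM (0.023), and Eif3f fell by 0.63 on the log2 scale (0.041). The 77 mitochondrial ribosomal proteins had 0 calls in edgeR (5 at an unadjusted p under 0.05), 1 in DESeq2 and 0 in voom, with a median of 0.02.

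Mitochondrially encoded transcripts made up 2.96% to 4.30% of counts in the controls and 4.86% to 6.10% in combination, and 4 of 10 tested genes were called, mt-Co1, mt-Nd2, mt-Nd5 and mt-Nd6, with a median of 0.53. That is 40% called, against 4.86% of all genes. The cytochrome oxidase subunit mt-Co1 stood at 20780.2, 16768 and 21754 CPM in control and 26610.2, 32774 and 27469.5 in combination (0.046). The complex I subunit mt-Nd5 rose from 2371, 1918 and 3176 to 4194, 6163 and 4716 CPM (1.01 ± 0.21, 0.027), and mt-Nd6 lies on the opposite strand beside it, so their reads may not be told apart. Without control 2 the median was 0.43 and 0 of 10 were called by edgeR (8 at an unadjusted p under 0.05); with all libraries DESeq2 called 7 and voom 2. The 80 nuclear-encoded respiratory chain genes had a median of -0.13, with 17 wholly below and 7 wholly above the controls (15.8% and 16.3% of all genes). Of the 80, 1 was called, lower, which is 1.25% against 4.86% of all genes. The mitochondrial share is also a measure of RNA quality, and its part in these differences was not tested.

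Of 28 histone genes tested 2 were called, both lower, a share of 7.14%, near the 4.86% of all genes. Of the 28, 10 lay wholly below the controls (15.8% of all genes did) and 0 above (16.3% of all genes did). The median was -0.79 (-0.34 without control 2). H4c14 fell from 7.15, 20.3 and 6.83 to 2.42, 2.48 and 2.40 CPM (-2.23 ± 0.38, 0.016) and H2bc21 from 9.03, 8.35 and 9.39 to 5.99, 4.72 and 5.69 (-0.71 ± 0.16, 0.036). Copies of histone genes are nearly identical, and their mRNAs mostly lack a poly(A) tail. Of 62 enzymes that add or remove histone methyl and acetyl marks, Ezh2 of the Polycomb complex (0.56 ± 0.12, 0.03), Dot1l (0.38 ± 0.09, 0.034) and Setd7 (0.44 ± 0.10, 0.034) were higher and the demethylase gene Kdm5c lower (-0.33 ± 0.09, 0.048). These 4 are 6.45% of the list, near the 4.86% of all genes, and the list median was -0.03. Mitotic genes were positive for 20 of 20, and 17 of them lay wholly above the controls (16.3% of all genes did). Of the 20, 0 were called by edgeR (4 at an unadjusted p under 0.05), 2 by DESeq2 and 0 by voom, at a median of 0.62. Control 2 was the lowest library: Mki67, the proliferation marker, read 732, 195 and 568 CPM in control and 822, 893 and 802 in combination (adjusted p = 0.21), and Top2a 573, 184 and 457 and 645, 648 and 653 (0.22). Without control 2 the mitotic median was 0.30.

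In the plot of 15 gene lists, the interferon, laminin and mitochondrial lists sit to the right of the median of all genes and the ribosomal and neutrophil lists to the left, with called genes a minority in each.

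**Figure D4:**
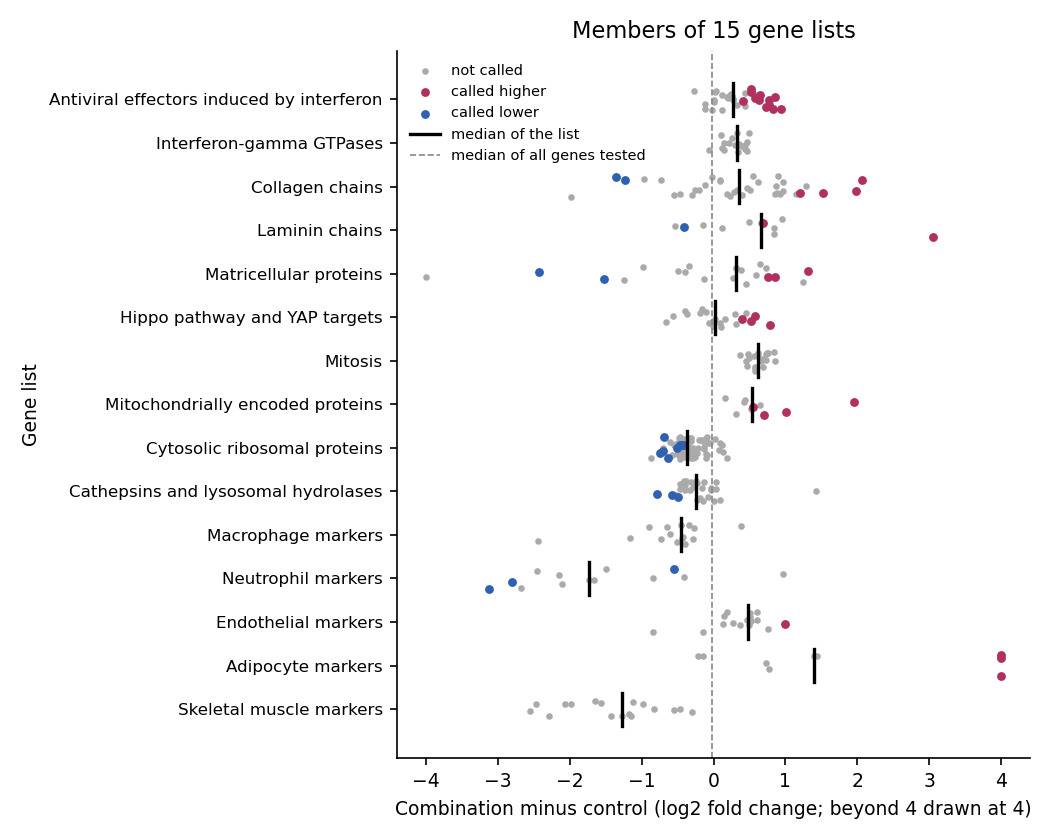
Log2 fold change, combination minus control (horizontal axis), of every tested member of 15 gene lists (vertical axis); red and blue points were called higher and lower, black bars are list medians and the dashed line is the median of all 13638 genes. Changes beyond 4 are drawn at 4, which applies to 3 adipocyte genes; the median is 0.28 for antiviral effectors, -0.37 for ribosomal proteins and -1.74 for neutrophil markers.

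Among white blood cell markers only neutrophil and dendritic cell lists had calls against control. In bulk tissue, fewer cells of a type and less RNA per cell cannot be told apart, and that holds for every cell marker below. Of 13 neutrophil markers tested, 3 were called lower, 23.1% called against 4.86% of all genes, and 8 lay wholly below the controls (15.8% of all genes did). The list median was -1.74, with a summed level of 787 to 1159 CPM in control and 764 to 793 in combination. Retnlg, a neutrophil granule protein, read 2.24, 10.9 and 2.51 CPM in control and 0.606, 0.787 and 0.379 in combination, and S100a8 2.79, 20.9 and 5.19 and 1.39, 1.33 and 1.39 (adjusted p = 0.019 and 0.048). Control 2 was the highest library for both, and without it the list median was -0.67 with 2 calls. Without combination 1, 2 or 3 the list had 0 calls. The uncalled S100a9 (10.4, 79.7 and 15 against 5.81, 5.69 and 4.87 CPM, adjusted p = 0.059) and Csf3r, the G-CSF receptor (33.4, 103 and 29.3 against 18.9, 19.6 and 20.6, 0.087), were ordered the same way. Padi4, which citrullinates histones, differed from those genes in that its controls were close together, at 398, 438 and 413 CPM against 297, 276 and 282 (-0.55 ± 0.08, 0.011). Of 9 S100 genes tested 3 were called higher and 1, S100a8, lower, 44.4% called against 4.86% of all genes. Among those called higher, S100a11 rose from 464, 372 and 442 to 624, 802 and 638 CPM (0.69 ± 0.14, 0.025), and S100a14 by 0.91 ± 0.21 (0.036).

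Macrophage markers had 0 calls in edgeR among 15 (8 at an unadjusted p under 0.05; 1 call without control 2), 2 in DESeq2 and 0 in voom, with a median of -0.45 and a summed level of 1533 to 2507 CPM in control against 1337 to 1376 in combination. Lysosomal enzymes were called lower for 3 of 29, 10.3% called against 4.86% of all genes. Of the 29, 13 lay wholly below the controls (15.8% of all genes did), and the median was -0.25. Psap, the precursor of the saposins that aid sphingolipid breakdown, fell from 1620.2, 2099.5 and 1919 to 1277, 1239 and 1263 CPM (-0.58 ± 0.15, 0.047), and the cathepsin D gene Ctsd from 219, 250.4 and 192 to 143, 115 and 125 (0.048). Without control 2, 0 of the 29 were called by edgeR (11 at an unadjusted p under 0.05) at a median of -0.22, and with all libraries DESeq2 called 7 and voom 0. The anaphylatoxin receptor gene C5ar1 fell from 49.3, 39.8 and 36.6 to 27.0, 28.0 and 26.9 CPM (-0.62 ± 0.14, 0.036), and the ficolin gene Fcna from 51, 51 and 23 counts to 12, 5 and 2. T cell, natural killer and B cell lists had 0 calls in edgeR (2, 1 and 1 at an unadjusted p under 0.05; DESeq2 called 0, 0 and 1, and voom 0 in each), with medians of -0.36, -0.02 and -0.45, and the B cell defining gene Ms4a1 had 4 summed counts in control and 2 in combination.

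Vessel and mural cell genes were mostly positive and seldom called. The 16 endothelial markers had 6.25% called, near the 4.86% of all genes (median 0.47, 0.58 without control 2). Their called member Emcn, an endothelial sialomucin, rose from 17.4, 24.1 and 16.1 to 41.2, 40.2 and 33.6 CPM (1.00 ± 0.22, 0.032). Its excess over swimming alone passed the test (1.62 ± 0.22, 0.006), and that over curcumin alone did not (1.00 ± 0.22, 0.056). Flt4, the VEGF-C receptor of lymphatic and tumour vessels, rose by 0.85 ± 0.22 (0.048). The lymphatic markers that fell under the filter were split. Prox1 had 25 summed counts in control and 15 in combination, Mmrn1 24 and 5, and Reln 7 and 12. Abcc9, a potassium channel subunit of pericytes, rose by 0.66 ± 0.17 (0.045), and Pdgfa, a mitogen for mesenchymal cells, from 64.5, 41.7 and 41.5 to 83.5, 84.1 and 104 CPM (0.036). The guidance and VEGF co-receptor gene Nrp1 fell from 51.2, 41.8 and 52.8 to 33.0, 32.7 and 36.5 (0.047). Among 14 fibroblast markers, Lrrc15 was higher (93.1, 37.3 and 85.2 against 179, 180.1 and 174 CPM, 0.048) and Scara5, a ferritin receptor of adventitial fibroblasts, lower (23.1, 40.4 and 30.0 against 3.15, 4.30 and 4.49, -2.97 ± 0.62, 0.032). The share of fibroblast markers called was 14.3%, against 4.86% of all genes.

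Of 9 fat cell markers tested, Cfd, Cidec and Pck1 were called higher, 33.3% called against 4.86% of all genes. Without combination 1, 2 or 3, 0 of the 9 were called. With all libraries 6 lay wholly above the controls (16.3% of all genes did). Those 3 were at or near 0 in control and low in combination, while the summed level of the list was 106 to 151 CPM in control and 141 to 152 in combination. Control libraries held at most 1 count of each, so between these groups only combination could carry them past the filter on low counts. Their calls are therefore no separate support for the list. The adipokine gene Cfd had 0, 1 and 1 counts in control and 67, 43 and 45 in combination, and Cidec, a lipid droplet protein, 0, 0 and 1 against 27, 27 and 32. The ratio of summed counts was 78.9 for Cfd (95% counting interval 21.5 to 657) and 87.6 for Cidec (15.3 to 3499). Pck1, of glyceroneogenesis, had 0 counts in every control library and 17, 19 and 28 in combination, for which the lower bound of the 95% counting interval of the ratio was 17.2. Under swimming alone the levels were 0.789 ± 0.816 CPM for Cfd and 0.276 ± 0.320 for Pck1, and under curcumin alone 0.126 ± 0.129 and 0.0415 ± 0.0360. The defining adipocyte genes Adipoq and Plin1 fell under the filter, with 2 and 1 summed counts in control and 36 and 24 in combination. Retn, also under the filter, went the other way, with 14 in control and 8 in combination. Skeletal muscle markers had 0 calls in edgeR among 17 (1 at an unadjusted p under 0.05; 1 call, lower, without control 2) and 0 in DESeq2 and voom, and overlapped in all of them, with a median of -1.28 (-1.79 without control 2) and a summed level of 55.3 to 965 CPM in control against 232.5 to 237.8 in combination. The labels do not describe how tissue was trimmed, and its part in the fat, muscle and fibroblast values was not tested.

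Against the single treatments as wholes, the fit called 116 genes between combination and curcumin (49 higher, 67 lower, 0.851% of genes) and 908 between combination and swimming (478 higher, 430 lower, 6.66%). Curcumin against control gave 0 calls in edgeR (1490 genes at an unadjusted p under 0.05) and swimming against control gave 42, 0.308% of genes. These comparisons share libraries with the comparison above, so they are set side by side here and not as separate evidence. A gene called in combination and not in a single treatment is not shown to differ between them unless the direct test says so. That test was passed against both single treatments by Mapk6, Fmod, Aspa, Slpi, Tep1, Acaa1a, Col11a1, Tead1, Nr4a1 and Irf1 among the genes named. Gucy2f, a retinal guanylate cyclase found here at low level, passed it against curcumin only, with 1.25 ± 1.09 CPM there, 5.26 ± 2.95 in swimming and 14.7 ± 2.27 in combination (adjusted p = 0.048 and 0.15).

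Calls were not spread evenly over the chromosomes, a pattern looked for after the values had been seen. Chromosome 2 held 7.94% of tested genes and 19.6% of the genes called lower, 65 of 331, with 17 called higher. Of its 1083 tested genes 64.6% had negative differences, and the median log2 fold change was -0.11. On this chromosome 293 genes, 27.1%, lay wholly below the controls (15.8% of all genes did) and 111 above (16.3% of all genes did). As a chromosome level, the median deviation of its genes from their mean over all 12 libraries, it read -0.08, -0.08 and -0.07 in the 3 combination libraries and between 0.0019 and 0.061 in the other 9. The shift is small beside single genes and was present in each combination library. From the start of the chromosome to its end, in 5 stretches of nearly equal gene number, the medians were -0.13, -0.02, -0.09, -0.15 and -0.19. The second stretch was at the median of all genes (-0.02), with 4 genes called higher and 3 lower, and there control 2 (-0.11) lay below all 3 combination libraries. Against curcumin alone the median of chromosome 2 was -0.12 and against swimming alone -0.08, while curcumin and swimming against control had 0.02 and -0.01. Grem1, Lamc3 and Zbp1, which were higher, and Slpi, Prom2, Ccn5, Id1, Lama5, Col20a1 and Fcna, which were lower, lie on it.

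By their medians chromosomes 17 and 16 were close to chromosome 2, both at -0.11. The 3 combination libraries lay outside the other 9 on 7 of 20 chromosomes, above on 3 and below on 4, whereas curcumin libraries did so on 2 and control and swimming libraries on 0. The gap to the nearest other library was 0.067 on chromosome 2 and at most 0.021 on the remaining 6. Chromosome 2 held 28 of 134 genes called lower without control 2 (20.9%), 135 of 810 by DESeq2 (16.7%) and 41 of 172 by voom (23.8%), and its median stayed between -0.12 and -0.099 in all alternatives. The cause of this pattern was not tested.

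**Figure D5:**
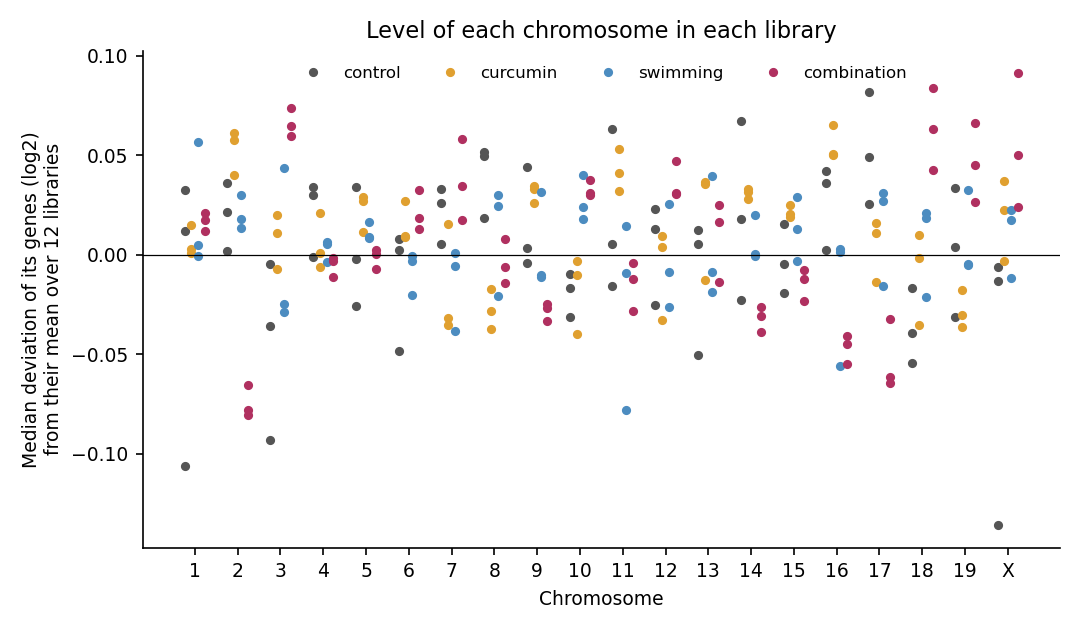
For each chromosome (horizontal axis), the median log2 deviation of its tested genes from their mean over the 12 libraries (vertical axis), 1 point per library coloured by group. On chromosome 2 the 3 combination libraries lie between -0.08 and -0.07 and the other 9 at or above 0.0019.

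Transcript length also went with direction. In 5 equal groups of tested genes by length, from shortest to longest, the median log2 fold change was -0.10, -0.07, -0.02, -0.01 and 0.05, and genes called higher and lower numbered 39 and 67 in the shortest group and 99 and 45 in the longest. Relative to the mean of the controls, the shortest group lay at -0.05, -0.07 and -0.08 in combinations 1, 2 and 3. In controls 1, 2 and 3 it lay at -0.03, 0.0028 and 0.04, so control 1 tended the same way as the combination libraries. Ribosomal protein and histone genes are short, and laminins and many collagens are long. The part of length in those lists was not tested.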

How the data were processed

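RNA was sequenced as paired reads, per the labels' protocols, and the deposited table holds for each gene and library a read count and an FPKM. The submitters' processing notes name cutadapt, TopHat2, HISAT2, HTSeq 0.9.1, DESeq 1.30.0 and build GRCm39. The protocol names mm9, so gene coordinates are given as the table has them. Strand setting and the treatment of shared reads are not given in the sources used here. The FPKM values deposited by the authors were checked only: all 184877 above 0 equalled count over length and library total within 0.1%.

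Counts were filtered with filterByExpr (minimum count 10, total 15), normalised with TMM, and tested by robust quasi-likelihood in edgeR 4.0.16 (R 4.3.3) over all 12 libraries (8 residual degrees of freedom), with Benjamini-Hochberg adjustment over 13638 genes. All adjusted p-values come from this test unless another tool is named. CPM uses scaled library sizes. Totals of 15868595 to 17278826 put a floor of 3 counts at 0.174 to 0.189 CPM, and intervals and floors cover counting error only.

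The members, gene lists and tests were chosen with earlier results of these data known. Named genes are those with the smallest p, largest change or largest CPM difference in each direction, those called without every library, and up to 4 members of each list. Further list members (such as Isg15, Ifit1, Col1a1, Ccn1 and Mki67) were named after their values were seen. A few list members are not reported here. On simulated data for combination against control with 13498 genes, 46.3%, 59.7% and 92.4% of genes changed by 1.5, 2 and 4-fold were recovered, with 13 false calls. The simulation gave each gene the same spread in every group. The data did not have that (26.7% in control, 6.46% in combination), so these figures do not show how the test behaves at unequal spread. Alternatives were RLE scaling, 2 other filters, DESeq2 1.42.0, limma 3.58.1 voom, fits of fewer libraries, a replicate block, a 1.5-fold threshold and, added after seeing the data, a fit that was not robust.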

Additional observations from a re-analysis of the deposited data

How the results depend on the processing

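The low spread of the combination libraries (6.46%, against 26.7% in control) enters every test, and the labels do not tie libraries to animals. For combination against control, 663 genes were called, 705 without the robust step, 627 with RLE scaling, 565 with no filter on low counts and 770 with a mean count of at least 50. DESeq2 called 1656 (846 higher, 810 lower), voom with a weight per group 403, a fit of the 6 libraries alone 132 and a test against a 1.5-fold change 3. Leaving out 1 library gave 4 to 2182 calls. Wherever tested, the 663 genes kept their direction in all alternatives, and 657 of them were among the DESeq2 calls. The kept direction says little, because nearly all called genes had no overlap between the groups. The cause of the differing counts was not tested, except that a test against a fold asks for more. For combination against curcumin (116 calls), DESeq2 gave 700, voom 1933, a fit of the 6 libraries 2121, the 1.5-fold test 1 and leaving out 1 library 3 to 715. For combination against swimming (908 calls), the same gave 1886, 2797, 2707, 6 and 31 to 2697.

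Replicate numbers did not pair the libraries: same-numbered control and combination libraries had deviations correlating at -0.045, 0.0025 and 0.030. With the replicate number as a block, 220 genes were called against control (126 higher, 94 lower), 28 against curcumin and 496 against swimming. Of 108 called genes named in the text, 54 passed with the block, 54 without control 2, 14, 9 and 4 without combinations 1, 2 and 3, and all 106 that DESeq2 gave a value for passed there. None of the 108 changed direction in any alternative, as is nearly fixed in advance for called genes whose groups do not overlap. Among uncalled genes named, Epcam (-0.03) changed sign without control 2, with -0.078 to 0.037 over the fits that leave out 1 library.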

Other observations

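Guidance genes, which steer axons and vessels, were called in both directions. Among 27 semaphorins and plexins 3 were higher and 2 lower, 18.5% called against 4.86% of all genes, with a median of 0.01. Plxna4, a semaphorin receptor, rose from 4.85, 2.43 and 3.38 to 8.78, 10.4 and 8.98 CPM (1.40 ± 0.26, edgeR adjusted p = 0.019) and its ligand family member Sema5a from 16.7, 9.17 and 14 to 28.2, 28.8 and 27.6 (1.09 ± 0.20, 0.019). Of 335 Zfp-named zinc finger genes tested, 2 were called higher and 6 lower, 2.39% against 4.86% of all genes. Of the same genes 104 had positive differences, and the median was -0.11. Wholly below the controls lay 59, a share near the 15.8% of all genes. Only 22 lay wholly above, where 16.3% of all genes did. The called Zfp866 fell from 58.7, 52.9 and 55.4 to 36.8, 36.2 and 33.6 CPM (-0.65 ± 0.09, 0.0059).

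At low counts, Zfp990 had 35 counts in control 1 and 0 in the other 5 libraries, and the chemokine gene Ccl21a had 12, 0 and 51 in controls 1, 2 and 3 and 0 in all 3 combination libraries. Among promoters of genes called lower, the TEAD site GGAATG was present in 14.9%, among genes called higher in 9.8% and among all tested genes in 12.9%, given as a description of letters with no test.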
